A study of Homo sapiens with 24 samples.

Results

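The nuclear genes of oxidative phosphorylation encode most subunits of the 5 respiratory complexes and the electron carrier cytochrome c. They were taken from 6 lists of protein-bound RNA windows by gene symbol: NDUFA, NDUFB, NDUFC, NDUFS and NDUFV genes for complex I, SDHA to SDHD for complex II, UQCR genes and CYC1 for complex III, COX4 to COX8 genes for complex IV, ATP5 genes for complex V, and CYCS for cytochrome c. NDUFA4 was counted with complex IV, where its protein is now placed. Of 9792 genes with a window in any list, 83 were members: 37 of complex I, 4 of complex II, 10 of complex III, 12 of complex IV, 19 of complex V and CYCS. The choice went by name among genes with a listed window, and every listed window had passed the authors' enrichment threshold. No read count or enrichment value was used beyond that. Of the 89 protein-coding symbols in RefSeq that fit the same names, 8 had no window in any list: ATP5MGL, COX4I2, COX6A2, COX6B2, COX7A1, COX7B2, COX8C and UQCRHL. Members with uncertain identity were the read-through symbols ATP5MF-PTCD1 and NDUFC2-KCTD14, which share windows with ATP5MF and NDUFC2, and the pseudogene UQCRFS1P1.

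The libraries came from HEK293, a human embryonic kidney cell line, and were made by eCLIP, in which RNA is crosslinked to its proteins, 1 protein is pulled down with an antibody (the IP library), and the reads are set against an input library. Of 24 libraries, 2 input and 2 IP libraries stood for each of 6 experiments: SNRNP200 in the cytoplasmic fraction with 500 µM arsenic, SNRNP200 in the cytoplasmic fraction untreated, SNRNP200 in whole cells with 500 µM arsenic, SNRNP200 in whole cells untreated, CAPRIN untreated and G3BP1 untreated. These treatments follow the sample characteristics, since another label field names arsenic for every sample. Nothing in the labels tells whether the 2 replicates of a group grew as separate cultures. Every p-value therefore measures only the spread between these samples, which may be technical. SNRNP200 is the helicase of the U5 particle of the spliceosome, and CAPRIN1 and G3BP1 are core proteins of stress granules, which gather untranslated mRNA. The label CAPRIN does not name the family member. A single antibody number stands in the protocols of all 3 proteins.

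Complex I passes electrons from NADH, and complex II those from succinate, to ubiquinone. Complex III carries them on to cytochrome c and complex IV to oxygen, and complex V, the ATP synthase, uses the proton gradient built up along the way. Nearly all of these subunits are made on cytosolic ribosomes and imported into mitochondria, while a small core is encoded by mitochondrial DNA.

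The lists hold only windows that the authors kept as enriched, each at most 100 bases long on hg38, with input and IP reads summed over the replicates and the log2 enrichment of each replicate, which the authors scaled within classes of GC content. The total depth of each library is not in the lists. In listed windows, IP reads numbered 358572 and 189220 for cytoplasmic SNRNP200 with arsenic and untreated, 5567969 and 8092831 for whole cells with arsenic and untreated, 635845 for CAPRIN and 218234 for G3BP1. Of 5 markers listed for HEK293, 3 had a window, and of 6 genes of liver, blood and muscle 0 had one.

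The input reads of the cytoplasmic arsenic list were nearly those of the whole-cell arsenic list, although the labels give each its own input libraries. Of 882 windows in both lists, 769 (87.2%) had the same number of input reads, and in the other windows the numbers differed by at most 9 reads. Pearson's r of the log2 input reads over these 882 windows was 0.999, as a description of windows that share libraries or cells. Among the other 14 pairs of lists, the share of windows with equal input reads ran between 0.351% and 14.4%, and r between 0.38 and 0.775. IP reads were equal in 7 of the 882 windows (0.794%). Of the 15 windows of oxidative phosphorylation genes in both arsenic lists, 14 had equal input reads and the remaining one, in ATP5F1E, had 14 and 13. Whether the cytoplasmic arsenic enrichment was computed on its own input libraries cannot be told from these lists, and every value of that list below carries this limit.

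**Figure D1:**
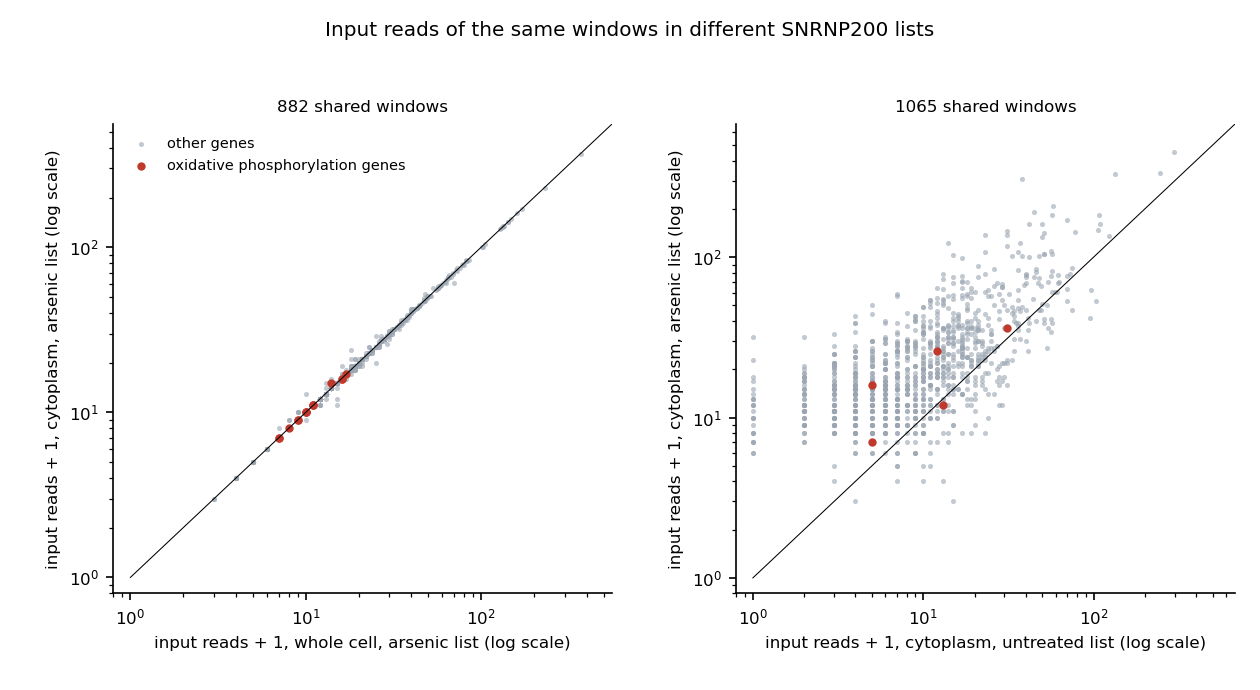
Input reads plus 1 of the same windows, summed over 2 replicates, on log axes: the cytoplasmic arsenic SNRNP200 list against the whole-cell arsenic list (left) and against the cytoplasmic untreated list (right). Red points are windows of oxidative phosphorylation genes and the line marks equal numbers; 769 of 882 windows lie on it at left, against 19 of 1065 at right.

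The lists were also on different scales. A window at a deposited log2 of 0 would hold 9.06 input reads for each IP read in the cytoplasmic arsenic list and 1.01 in the cytoplasmic untreated list, 1.58 and 1.63 in the whole-cell lists with arsenic and untreated, 2.09 for CAPRIN and 3.17 for G3BP1. In the members' windows, the median ratio of IP to input reads was 2.41 in the cytoplasmic arsenic list, against 6.04 in the cytoplasmic untreated list. It was 9.58 and 8 in whole cells with arsenic and untreated, 8.25 for CAPRIN and 4.31 for G3BP1. The cytoplasmic arsenic windows thus had the lowest ratio of reads, while their median deposited log2 was 3.97, against 2.70 in untreated cytoplasm.

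In the cytoplasm with arsenic, 52 of the 83 oxidative phosphorylation genes had an SNRNP200 window, against 7 in untreated cytoplasm. The counts were 17 and 0 with q under 0.05, and 32 and 1 with at least 2 windows per gene. No share of all genes was computed under these stricter rules, so those counts cannot be set against the rest of the lists. The 52 and 7 genes are 62.7% and 8.43% of the members, beside 25.2% and 18.6% of all 9792 genes. The members' 101 windows with arsenic made up 1.49% of that list (95% exact interval 1.22 to 1.81, counting error only), against 8 windows or 0.191% (0.0826 to 0.377) untreated. Only the arsenic list held 46 members, only the untreated list held 1, and both held 6. Among the 3182 genes in either list, these shares were 42.9%, 22.3% and 34.8%. Since the input reads of the arsenic list were nearly those of whole cells, more bound RNA and more RNA of that gene in the fraction cannot be told apart.

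The complexes were not represented alike in the cytoplasm with arsenic. Complex IV had 11 of 12 genes listed and complex V 15 of 19, while complex II had 3 of 4, complex III 5 of 10 and complex I 18 of 37, and CYCS had no window. Genes were grouped by symbol, and in complex V ATP5MF and the read-through ATP5MF-PTCD1 rested on the same 1 window. Untreated, the genes listed included NDUFB8 and NDUFS6 of complex I, CYC1 of complex III, COX7C of complex IV, and ATP5F1A and ATP5F1B of complex V, and complex II had none. The genes in both cytoplasmic lists were ATP5F1A, ATP5F1B, COX7C, CYC1, NDUFB8 and NDUFS6.

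**Figure D2:**
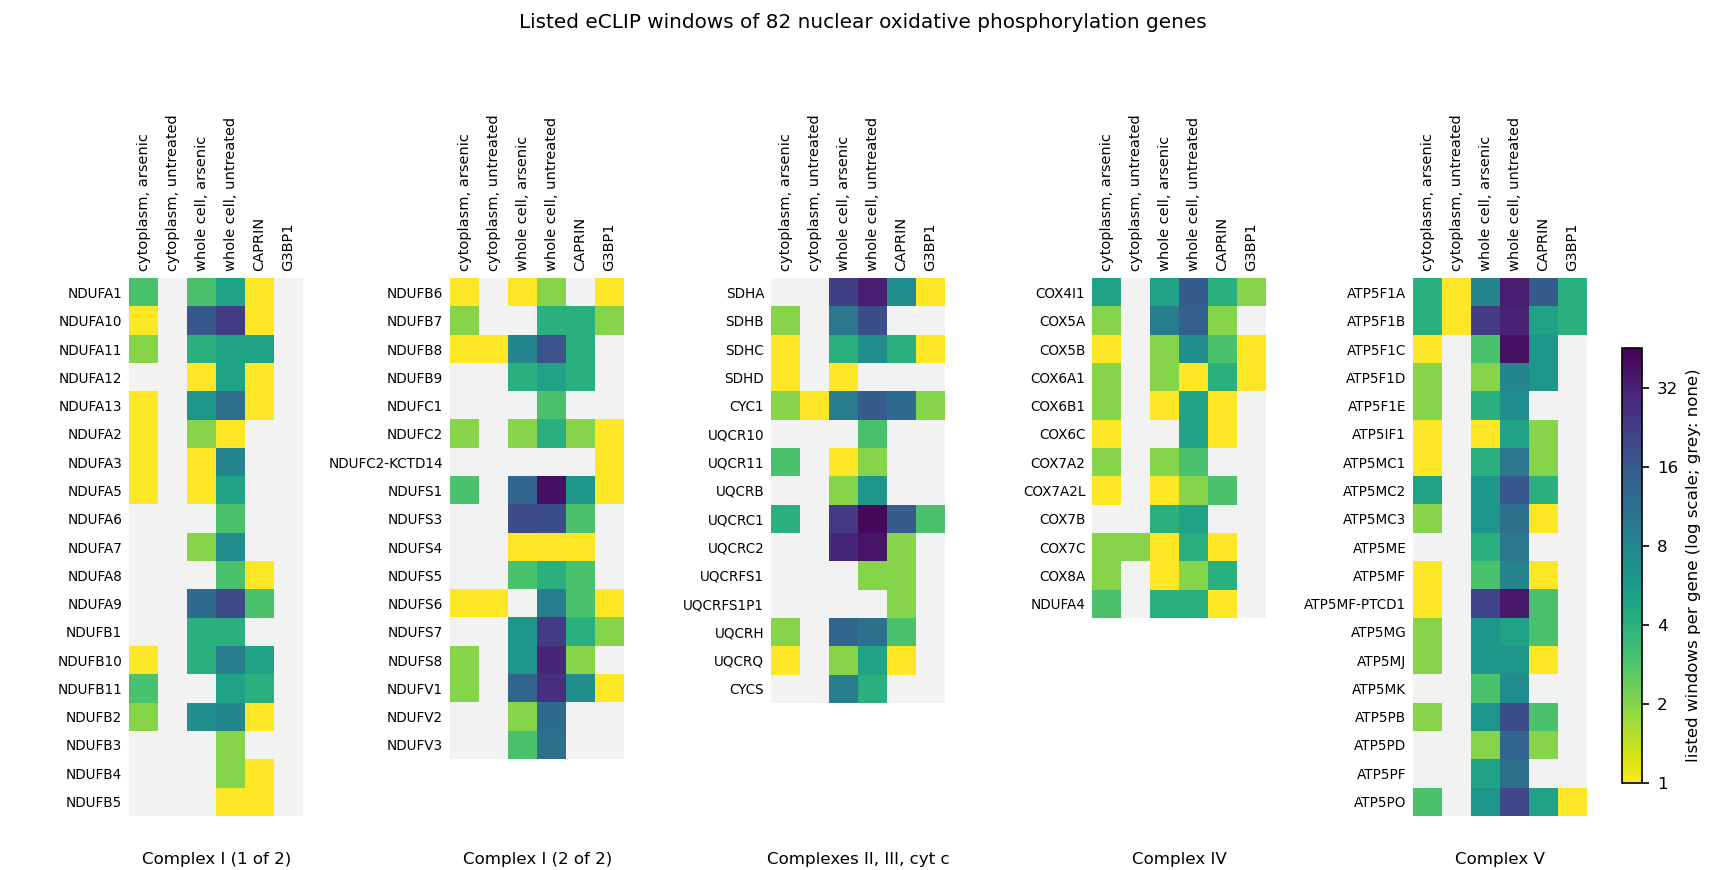
Number of listed windows of each of 82 genes (rows, by complex) in each list (columns), as colour on a log scale, grey where no window was listed. SNRNP200 lists come first in each panel, then CAPRIN and G3BP1; the cytoplasmic arsenic column has windows in 52 of these genes, against 6 in the cytoplasmic untreated column.

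With arsenic, the cytoplasmic windows of these genes lay outside introns, as did nearly all windows of that list. Their largest share was near the 5′ end of the mRNA. Of the 101 windows, 27 (26.7%, 95% exact interval 18.4 to 36.5) were in 5′ UTRs and 15 (14.9%, 8.56 to 23.3) at start codons, where all windows of the list had 17.5% and 5.91%. A further 29 were in coding sequence, 9 at stop codons and 21 in 3′ UTRs (20.8%, against 45.5% of all windows), and 0 were in introns. Of all windows of the list, 0.133% lay in introns at a splice site, 0.118% near one and 0.295% deep in introns. Windows of 1 gene share reads and RNA, so the intervals describe counts of windows and not replicates. The 5′ end was reached in each complex with listed genes: 14 of 30 windows of complex I, 1 of 4 of complex II, 4 of 12 of complex III, 10 of 23 of complex IV and 13 of 32 of complex V lay in the 5′ UTR or at the start codon.

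Of the 5′ UTR windows that could be placed on a RefSeq transcript start, 19 of 21 began within 20 bases of it. For CAPRIN 7 of 8 did, and in whole cells 1 of 6 with arsenic and 3 of 13 untreated. Several windows, such as those of COX7C and COX8A, began exactly at the annotated start. Window edges thus follow the annotation, and where within a window the protein was bound cannot be told. RefSeq promoters of GRCh38.p14 matched 67 of the 83 symbols, with the bases from 250 before to 50 after each start, and the starts used in these cells were not measured. Several of the 5′ ends with a listed window began with a run of pyrimidines, the form of the 5′ terminal oligopyrimidine tract of ribosomal protein mRNAs. They are shown because the listed window covers this run. The first 30 transcribed bases follow, 5′ to 3′, with the opening pyrimidine run in capitals.
COX7C, complex IV, chr5:86617941-86617970, plus strand: CTTTTCagtccttgcgcaccggggaacaag
COX4I1, complex IV, chr16:85799695-85799724, plus strand: CTCTTCCggtcgcgggacaccgggtgtaga
ATP5PO, complex V, chr21:33915775-33915804, minus strand: CTCTTCCCactcgggtttgacctacagccg
ATP5F1E, complex V, chr20:59032306-59032335, minus strand: CTTCCTgcggctgaaccgcccggctgagcc
ATP5MG, complex V, chr11:118401606-118401635, plus strand: CCTTCCggcgggtgacattcagccggcggt
ATP5MC2, complex V, chr12:53676054-53676083, minus strand: CCCCTCTCTgtcttctctgcagtgggagca
UQCRH, complex III, chr1:46303698-46303727, plus strand: CTTCTTgatcctgaactgggttaggtgccg
COX8A, complex IV, chr11:63974620-63974649, plus strand: attttggcttcctgaccttgggctacggct
COX8A, a small subunit of complex IV, is shown for contrast: its 5′ UTR window had the highest enrichment among the members' 5′ UTR windows of the cytoplasmic arsenic list, and its RefSeq start has no such run.

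A start was counted as a pyrimidine start where it read C followed by at least 4 bases that were each C or T, on the transcribed strand only. By that rule 9 of the 67 matched members (13.4%) had one, against 5.14% of 27305 genes in the promoter table and 71.6% of 67 matched cytosolic ribosomal protein genes. Among genes with a 5′ UTR window in the cytoplasmic arsenic list, 7 of 20 matched members (35%) had one, against 104 of 708 genes (14.7%). A match describes the letters at the annotated start and not a site.

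The highest of these 5′ UTR windows, named after their values were seen, were as follows. COX8A had 80 IP and 19 input reads at a log2 of 5.33 (replicates 5.25 and 5.41) in the authors' deposited table. NDUFC2, a membrane subunit of complex I, had 49 IP and 11 input reads at 5.08 (3.93 and 6.23). NDUFB6, also of complex I, had 32 and 8 reads at 4.75 (3.92 and 5.58). The replicates of COX8A lay close together, while those of NDUFC2 and NDUFB6 spread over more than 1 log2 unit. ATP5MC3, one of the genes for the c ring of the ATP synthase, had 2 windows in the 5′ UTR, with 70 and 80 IP reads on 23 and 28 input reads and log2 values of 3.24 and 3.08.

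Among members' windows with at least 20 IP reads, the highest of the cytoplasmic arsenic list lay in coding sequence and had few input reads. CYC1, the cytochrome c1 of complex III, had 44 IP and 6 input reads at a log2 of 6.08 (replicates 3.73 and 8.42). ATP5F1C, the gamma subunit of the ATP synthase, had 38 and 10 reads at 5.65 (3.98 and 7.33). UQCRC1, a core protein of complex III, had 43 and 6 reads at 5.45 (4.22 and 6.69). In each of these 3 windows the replicates lay far apart, by more than 2 log2 units. By number of windows, COX4I1 and ATP5MC2 led complexes IV and V with 5 each, UQCRC1 led complex III with 4, and SDHB, the iron-sulfur subunit of complex II, led its complex with 2. In complex I, NDUFA1, NDUFB11 and NDUFS1 had 3 each.

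Only 5 windows of 4 members were in both cytoplasmic lists, so the same piece of RNA can be compared only there. In a 5′ UTR window of COX7C (chr5:86617998-86618055) next to the stretch printed above, there were 91 IP and 35 input reads with arsenic, against 91 IP and 30 input reads untreated. Its deposited log2 was 4.29 (replicates 4.17 and 4.40) with arsenic and 1.45 (1.30 and 1.59) untreated. The IP reads were thus equal and the input reads close, while the deposited values differed by 2.84 (SE 1.13; limma, adjusted p = 0.15) and did not overlap. The adjacent COX7C window had 60 IP and 25 input reads with arsenic, against 40 IP and 11 input reads untreated.

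The deposited values were also higher with arsenic in the other windows, where the reads were similar for ATP5F1A but differed for NDUFS6 in the input and for CYC1 in the IP. The 5′ UTR window of ATP5F1A, the alpha subunit of the ATP synthase, had 56 IP and 11 input reads with arsenic, against 70 IP and 12 input reads untreated. Its log2 was 3.59 (replicates 3.18 and 4.0) with arsenic and 2.38 (2.31 and 2.45) untreated, a difference of 1.21 (SE 1.14; limma, adjusted p = 0.40). NDUFS6, a complex I subunit, had 25 IP and 15 input reads with arsenic and 26 and 4 untreated, with a difference of 1.27 (SE 1.14; limma, adjusted p = 0.38). CYC1 had 44 IP and 6 input reads with arsenic and 21 and 4 untreated, with a difference of 3.16 (SE 1.50; limma, adjusted p = 0.17). The replicates of CYC1 overlapped between the groups, and those of the other 3 genes did not.

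limma called 0 of these 4 members and 0 of all 669 representative windows (0%) at an adjusted p under 0.05, while 196 of the 669, COX7C among them, had an unadjusted p under 0.05. With a variance that follows the enrichment it called 112 windows, COX7C being the 1 member. Replicate ranges did not overlap, with arsenic higher, in 3 of the 4 members and in 474 of 669 windows (70.9%), and with arsenic lower in 0 members and 1.05% of windows. The median difference was 2.05 over the 4 members and 2.02 over all windows, so a difference of this size was common to the list. On IP reads alone, taken relative to the median of all 1065 shared windows, the log2 ratio of arsenic to untreated was 0.22 for the representative COX7C window, -0.10 for ATP5F1A, 0.17 for NDUFS6 and 1.29 for CYC1. For the adjacent COX7C window it was 0.81. An exact permutation test of 2 samples against 2 cannot reach 0.05, so none was used.

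**Figure D3:**
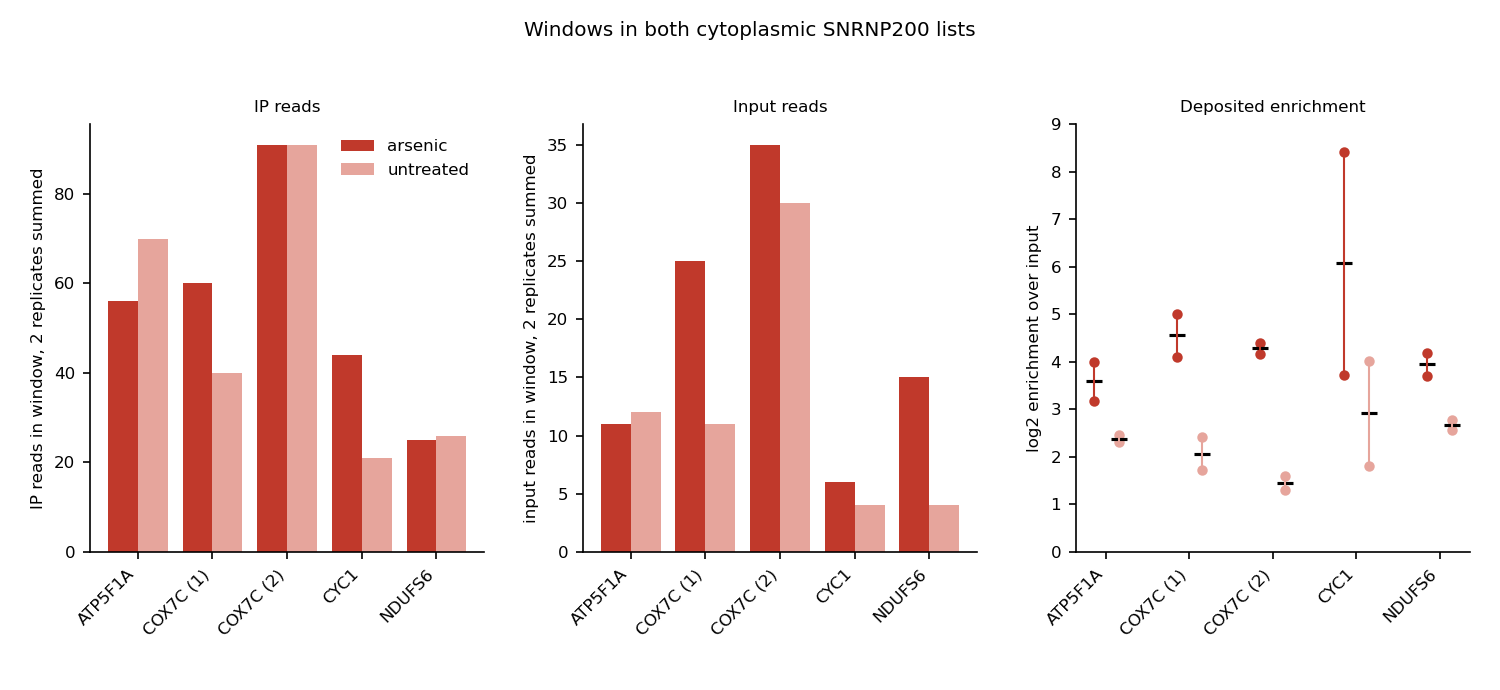
The 5 windows of oxidative phosphorylation genes in both cytoplasmic SNRNP200 lists, with arsenic (dark) and untreated (light). Bars are IP and input reads summed over 2 replicates; points are the 2 replicate log2 enrichments in the authors' deposited table, joined by a line, with the mean as a dash. IP reads were higher with arsenic in 2 windows, equal in 1 and lower in 2, while the mean log2 was higher with arsenic in all 5.

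In whole cells, SNRNP200 windows covered nearly every member, as they did most genes. With arsenic 69 members (83.1%) had a window and untreated 80 (96.4%), beside 83.8% and 92.4% of all genes. SDHD, a membrane anchor of complex II, was the 1 member listed only with arsenic. Listed only untreated were COX6C, NDUFA6, NDUFA8, NDUFB3, NDUFB4, NDUFB5, NDUFB7, NDUFB11, NDUFC1, NDUFS6, UQCR10 and UQCRFS1, 12 genes of which 9 belong to complex I. Among the 9279 genes in either list, 2.45% were only in the arsenic list, 11.6% only in the untreated list and 85.9% in both, as were 68 members.

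Most members in both whole-cell lists had fewer windows with arsenic. The number was lower in 58 of 68 (85.3%), equal in 4 and higher in 6, where 81% of the 7975 genes in both lists had fewer. The median ratio of windows with arsenic to windows untreated was 0.5 for the members and 0.625 for all genes. The extremes were ATP5F1C, with 3 windows with arsenic and 38 untreated, and CYCS, the cytochrome c gene, with 9 and 4. UQCRC2 of complex III had 29 and 37, and SDHA, the flavoprotein of complex II, had 22 and 33. In both ATP5F1C and CYCS most arsenic windows lay in introns. The 3 arsenic windows of ATP5F1C were 2 at 5′ splice sites and 1 in coding sequence. Those of CYCS were 5 in introns, 2 in coding sequence and 2 in the 5′ UTR. These 5′ UTR windows had 221 and 100 IP reads on 17 and 7 input reads.

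In whole cells the windows of these genes lay in introns as well as in exons. Introns at a splice site held 192 of 431 member windows with arsenic (44.5%, 95% exact interval 39.8 to 49.4) and 337 of 915 untreated (36.8%, 33.7 to 40), where all windows of the lists had 41% and 35.7%. Coding sequence held 25.1% with arsenic and 28.5% untreated, below the 35.7% and 38.7% of all windows. Exons of mRNA with no coding or UTR label held 14.6% with arsenic and 11.4% untreated, against 4.68% and 4.26%. The intron shares rested on windows of few input reads: among windows with at least 10 input reads, introns at a splice site held 0% with arsenic and 6.85% untreated. By complex, introns held 70 of 157 windows of complex I with arsenic and 170 of 378 untreated, 43 of 80 and 67 of 123 of complex III, and 66 of 116 and 146 of 285 of complex V.

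The members' highest whole-cell windows with arsenic were in COX5A and NDUFS3. A 5′ splice site of COX5A had 48 IP reads and 1 input read at a log2 of 5.59 (replicates 4.88 and 6.31). An NDUFS3 exon had 57 and 1 at 5.51 (4.99 and 6.03). Untreated, the members' highest windows were in CYC1 and ATP5PB. An intron window of CYC1 next to both splice sites had 134 IP reads and 0 input reads at 6.44 (5.54 and 7.35). A 5′ splice site of ATP5PB, a peripheral stalk subunit of complex V, had 76 and 0 at 6.40 (5.94 and 6.85). By number of windows, complex III was led by UQCRC2 with arsenic, at 29, and by UQCRC1 untreated, at 42.

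**Figure D4:**
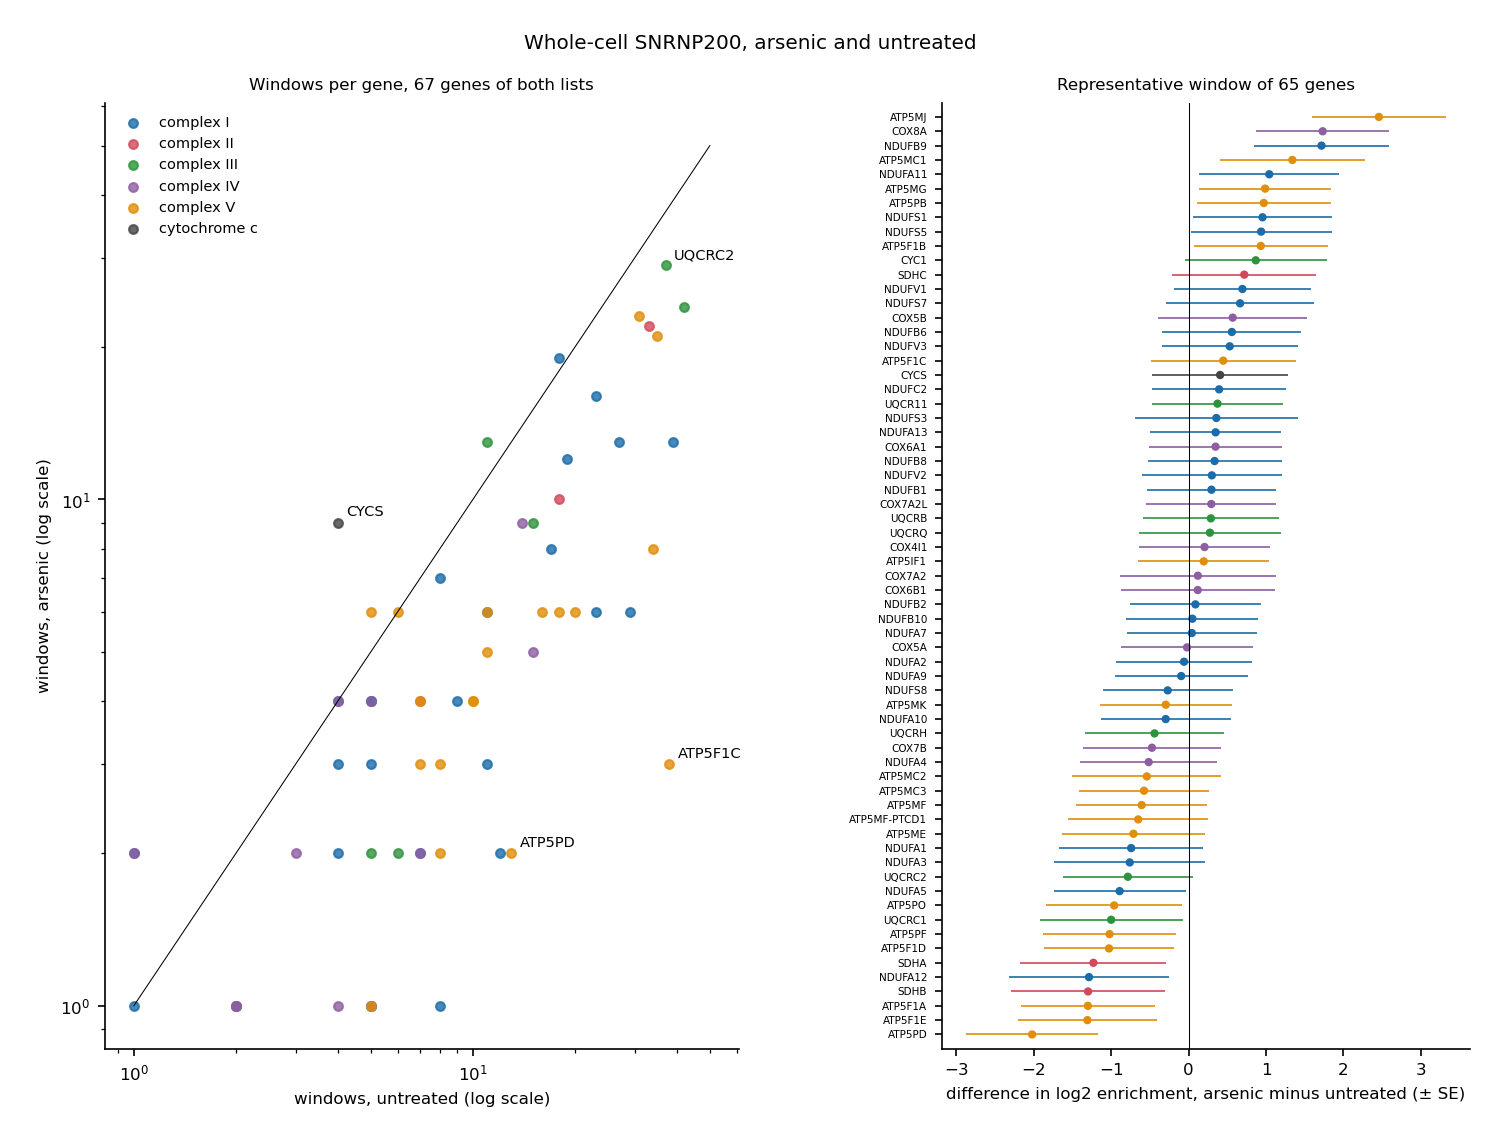
Left, windows per gene in whole cells with arsenic (vertical) and untreated (horizontal), on log axes, for 67 of the genes in both lists, coloured by complex; the line marks equal numbers, and 57 of these genes lie below it. Right, the difference in log2 enrichment, arsenic minus untreated, in 1 representative window of 65 members, with its standard error from limma; values run between -2.02 and 2.46.

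In windows of both whole-cell lists, the difference of enrichment was small against its error. The representative window of a gene was the shared window with most IP reads. limma called 0 of 66 member windows and 0 of all 7408 (0%), while 2 members and 284 windows had an unadjusted p under 0.05, and it called 0 windows with a variance that follows the enrichment. The median difference, arsenic minus untreated, was 0.12 over the members and 0.10 over all windows. Replicate ranges did not overlap with arsenic higher in 8 of 66 members, against 16.9% of all windows, and with arsenic lower in 12 of 66, against 15.2%.

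The largest difference in each direction came from a window of few input reads. ATP5MJ, a small complex V subunit, had 34 IP and 0 input reads with arsenic, against 65 and 7 untreated, at log2 values of 4.69 (replicates 4.12 and 5.26) and 2.23 (2.06 and 2.41). That made a difference of 2.46 (SE 0.87; limma, adjusted p = 0.99). ATP5PD, the d subunit of complex V, had 15 IP and 1 input read with arsenic, against 37 and 0 untreated, and a difference of -2.02 (SE 0.85; limma, adjusted p = 0.99). Both genes had replicate ranges that did not overlap. Other large differences were those of COX8A at 1.73 and NDUFB9 at 1.72 on the higher side and of ATP5F1E at -1.31 on the lower side, each with a limma adjusted p of 0.99. The ATP5F1E window had 40 IP and 13 input reads with arsenic, against 60 and 11 untreated. The value of ATP5F1E turned to 0.11 over the mean of its shared windows.

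Between fractions with arsenic, 48 members were in both lists, 21 only in the whole-cell list and 4 only in the cytoplasmic list (COX6C, NDUFB7, NDUFB11 and NDUFS6). Among the 8430 genes in either list the shares were 26.6%, 70.7% and 2.7%. These numbers depended on the length of the lists: with the whole-cell list shortened to the length of the cytoplasmic list by q value, 46 members were only in the cytoplasmic list and 2 only in the whole-cell list. The share of all genes was not computed for the shortened list. The lists shared 15 windows of members, 14.9% of the members' cytoplasmic windows and 3.48% of their whole-cell windows, beside 13% and 0.749% of all windows. In these 15 windows the IP reads were lower in the cytoplasm in 13, equal in 1 and higher in 1, between 7 and 53 in the cytoplasm and between 32 and 103 in whole cells. The deposited log2 was nevertheless higher in the cytoplasm in all 15, as it was in 93.8% of all 882 shared windows, in which IP reads were lower in the cytoplasm in 88.9%.

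ATP5F1C shows this in 1 coding window, which had 38 IP and 10 input reads in both fractions. Its deposited log2 was 5.65 (replicates 3.98 and 7.33) in the cytoplasm and 2.99 (1.71 and 4.28) in whole cells, a difference of 2.66 (SE 1.24; limma, adjusted p = 0.26). UQCRC1 had 43 IP and 6 input reads in the cytoplasm and 48 and 6 in whole cells, with a difference of 2.07 (SE 1.00; limma, adjusted p = 0.26). NDUFA11, a membrane subunit of complex I, had 53 and 15 reads in the cytoplasm and 48 and 15 in whole cells in a start-codon window that another, unnamed gene overlaps, with a difference of 2.67 (SE 0.98; limma, adjusted p = 0.26). The deposited differences in these windows stand beside equal inputs and IP reads within a few reads of each other. limma called 0 of 15 member windows and 0 of 527 in all (0%), while 1 member, NDUFA11, and 94 windows had an unadjusted p under 0.05. With a variance that follows the enrichment it called 3 windows and 0 members. The median difference was 1.34 over the members and 1.31 over all windows. Replicate ranges did not overlap, with the cytoplasm higher, in 8 of 15 members and in 58.8% of all windows, and with the cytoplasm lower in 0 members and 2.28% of windows.

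Untreated, all 7 members of the cytoplasmic list were also in the whole-cell list, and 73 members were only in the whole-cell list, beside 18.7% and 80.2% of 9159 genes. No member was only in the cytoplasmic list, where 1.17% of the genes were. Of the members' windows 2 were shared, in NDUFS6 and CYC1. NDUFS6 had 26 IP and 4 input reads in the cytoplasm and 44 and 19 in whole cells, with a difference of 0.82 (SE 0.53; limma, adjusted p = 0.45), and CYC1 had 21 and 4 in the cytoplasm and 50 and 10 in whole cells, with a difference of -0.36 (SE 0.91; limma, adjusted p = 0.86). Input reads thus differed between these lists, unlike those of the arsenic lists. limma called 0 of 390 windows (0%) here, of which 65 and neither member had an unadjusted p under 0.05. A window in all 4 SNRNP200 lists was found in 0 members, so whether arsenic acted alike in both fractions could not be tested on these genes.

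CAPRIN windows were listed in 59 of the 83 genes, against 19 for G3BP1. That is 71.1% and 22.9% of the members, beside 44.6% and 12.6% of all genes. Only the CAPRIN list held 42 members, only the G3BP1 list held NDUFB6 and NDUFC2-KCTD14, and both held 17, where the shares of the 4643 genes in either list were 73.5%, 6.03% and 20.5%. The window of NDUFC2-KCTD14 was listed for CAPRIN too, under NDUFC2 alone, so it differed only in its gene label. That of NDUFB6 was an intron window with 14 IP and 0 input reads. By complex, CAPRIN had 25 genes of complex I, 2 of complex II, 7 of complex III, 10 of complex IV and 15 of complex V, and G3BP1 had 9, 2, 2, 3 and 3. CYCS had a window in neither list. The genes in both included ATP5F1A, ATP5F1B, ATP5PO, COX4I1, COX5B, COX6A1, CYC1, NDUFB7, NDUFC2, NDUFS1, NDUFS6, NDUFS7, NDUFV1, SDHA, SDHC and UQCRC1.

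CAPRIN windows of these genes had higher shares at start codons and stop codons than the whole list, with no test made between the shares. Of 205 windows, 28 (13.7%, 95% exact interval 9.27 to 19.1) were at start codons and 22 (10.7%, 6.85 to 15.8) at stop codons, where all windows had 4.38% and 4.49%. Coding sequence held 96 (46.8%, against 43.5%) and 3′ UTRs 43 (21%, against 34.8%). Taking the 1 window of each gene with most IP reads, start codons held 32.2%, coding sequence 16.9% and 3′ UTRs 30.5%. G3BP1 had 30 member windows, 19 of them in coding sequence, 4 at start codons and 1 in a 3′ UTR.

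Some of the CAPRIN start-codon windows were deep. CYC1 had 342 IP and 14 input reads at a log2 of 4.72 (replicates 4.52 and 4.91), and ATP5F1B, the beta subunit of the ATP synthase, had 269 and 8 at 5.11 (4.95 and 5.27). COX6A1 of complex IV had 122 and 7 at 4.08 (3.85 and 4.31), and NDUFS6 had 115 and 6 at 4.21 (3.89 and 4.53). The replicates of each of these windows lay within 1 log2 unit.

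Among the members with a CAPRIN start-codon window, several shared the letters ATGGCGG, in which the first 3 bases spell a start codon. They are shown because a window labelled as start codon covers the letters, which are in capitals. Each line gives 30 transcribed bases of RefSeq, 5′ to 3′.
NDUFS6, complex I, chr5:1801407-1801436, plus strand: agcggcgcaaaATGGCGGcggcgatgacct
NDUFS4, complex I, chr5:53560648-53560677, plus strand: tttgcctgcagcaagATGGCGGcggtgtca
NDUFB8, complex I, chr10:100529837-100529866, minus strand: gtgaagaaggtgaagATGGCGGtggccagg
NDUFB11, complex I, chrX:47144665-47144694, minus strand: gcagcaccatctgtcATGGCGGctgggctg
UQCRC1, complex III, chr3:48609606-48609635, minus strand: gactgcagctggaagATGGCGGcgtccgtg
COX6A1, complex IV, chr12:120438113-120438142, plus strand: agtccagatcaaaaATGGCGGtagttggtg
Within the first 50 transcribed bases, 15 of the 67 matched members (22.4%) held these letters, against 2.61% of all promoters in the table and 7.68% of the 7603 matched genes with a window in any list. On both strands of the whole 300 bases the shares were 31.3%, 6.66% and 14.9%. Of 19 matched members with a CAPRIN start-codon window 6 held them in the first 50 bases (31.6%), against 11.5% of 581 genes with such a window. The letters were not particular to CAPRIN. In the cytoplasmic arsenic list 3 of 13 such members held them (23.1%: NDUFB11, SDHB and UQCRC1), against 7.27% of 330 genes. Start-codon windows also covered them in NDUFB8 and NDUFS7 in untreated whole cells and in NDUFS6 for G3BP1. In untreated cytoplasm and in whole cells with arsenic they covered them in 0 members. In each gene printed, the window labelled as start codon began at this ATG, so its cover of the letters follows from the annotation. Whether this ATG is the codon used in these cells was not tested.

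The members' highest CAPRIN windows had no input reads, which leaves their enrichment without a measured denominator. They were a 3′ UTR window of COX6A1 with 43 IP reads at a log2 of 6.70 (replicates 6.50 and 6.91), a coding window of UQCRC1 with 51 at 6.63 (6.47 and 6.80), and a 3′ UTR window of ATP5F1A with 37 at 6.51 (6.31 and 6.71). Of the members' 205 CAPRIN windows, 86 had 0 input reads. By number of windows, UQCRC1 and ATP5F1A had 15 each, and NDUFV1, the subunit of complex I that binds NADH, and SDHA had 7 each.

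G3BP1 had 1 member far above the others. The G3BP1 list joins a set of windows called on up to 2 replicates and a set called on up to 3, although the labels give 2. The member was NDUFS7, a core subunit of complex I, in a window labelled as 5′ UTR (chr19:1383527-1383608). This window lay wholly upstream of the RefSeq start of NDUFS7 at chr19:1383907. The first set gave it 2687 IP and 13 input reads at a log2 of 9.47 (replicates 9.03 and 9.91). The second set gave 240 IP and 72 input reads at 2.82 for the same window, with a lowest replicate of 1.63 and a highest of 3.56. An adjacent window, also upstream of that start, was labelled as intron next to both splice sites. It had 863 IP and 17 input reads at 7.81 (6.28 and 9.35) in the first set and did not appear in the second. The sets thus differed on this gene by more than the spread of either, and no other list had a window there. Among windows with at least 20 IP reads, NDUFS7 was followed by an ATP5F1A intron window at 5.96 with 26 IP and 0 input reads, and by the start-codon window of CYC1 at 4.95 with 58 and 2.

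CAPRIN and G3BP1 shared 20 member windows, 9.76% of those of CAPRIN and 66.7% of those of G3BP1, beside 10.7% and 55.8% of all windows. Of these 20, 5 in 4 members were in the G3BP1 set of up to 2 replicates that could be tested. limma called 0 of these 4 members, while it called 111 of all 367 windows (30.2%), 41 higher for CAPRIN (11.2%) and 70 lower (19.1%). CYC1 had 342 IP and 14 input reads for CAPRIN and 58 and 2 for G3BP1, with a difference of -0.23 (SE 0.52; limma, adjusted p = 0.76). NDUFB7 had 94 and 8 reads for CAPRIN and 61 and 7 for G3BP1, with a difference of -0.08 (SE 0.55; limma, adjusted p = 0.93). NDUFS6 had 115 and 6 for CAPRIN and 13 and 0 for G3BP1, with a difference of -0.07 (SE 0.53; limma, adjusted p = 0.93). The remaining member, NDUFC2, had 13 and 0 in both lists and a difference of -0.48 (SE 0.56; limma, adjusted p = 0.56). Replicate ranges overlapped in the representative windows of all 4 members. Among all windows tested, those of 25.3% lay apart with CAPRIN higher and of 43.3% with CAPRIN lower. The other shared window of NDUFB7, in its 5′ UTR, had 32 and 2 reads for CAPRIN and 39 and 2 for G3BP1. Its replicate ranges did not overlap (3.28 and 3.91 against 3.96 and 4.65). Its difference of -0.71 was not tested on its own.

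ATP5F1A, ATP5F1B and CYC1 had windows in all 6 lists, and COX7C and NDUFB8 in all 4 SNRNP200 lists. The number of windows in a gene differed from list to list. ATP5F1A had 4 windows in the cytoplasm with arsenic and 1 untreated, 8 in whole cells with arsenic and 34 untreated, 15 for CAPRIN and 4 for G3BP1. The same 5′ UTR window of ATP5F1A (chr18:46098232-46098296) was listed in both cytoplasmic lists and for CAPRIN, with 27 IP and 0 input reads for CAPRIN at 5.35 (4.75 and 5.95).

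**Figure D5:**
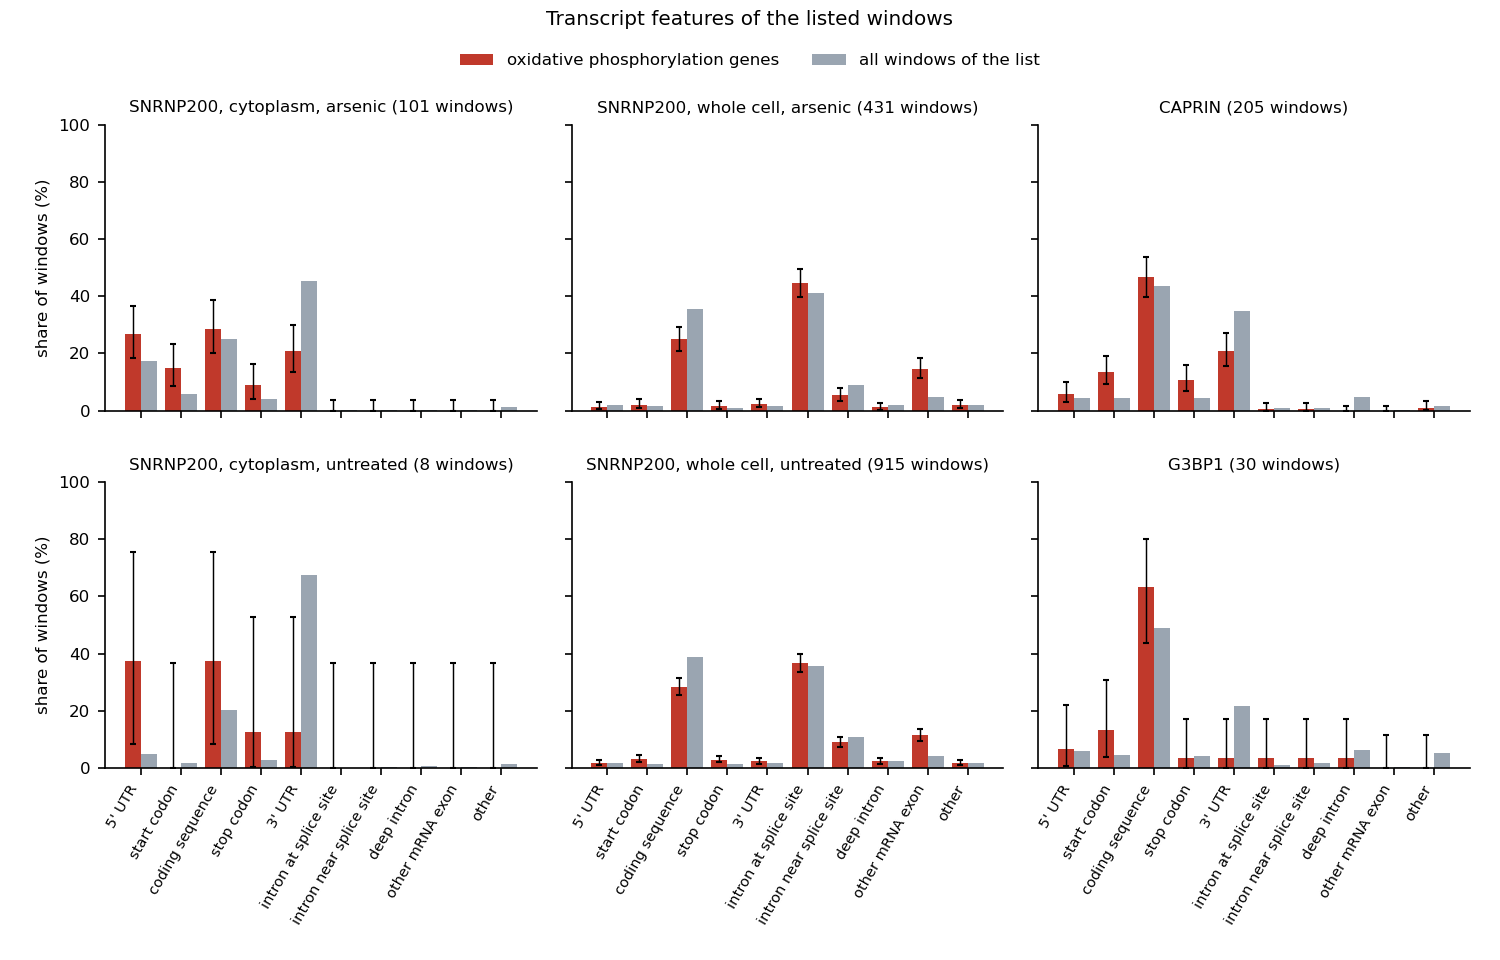
Share of windows by transcript feature in each list, for oxidative phosphorylation genes (red, with 95% exact binomial intervals over windows, counting error only) and for all windows of the list (grey). Panel titles give the number of member windows; 5′ UTRs and start codons held 26.7% and 14.9% of member windows in the cytoplasm with arsenic, against 17.5% and 5.91% of all windows.

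Genes around the respiratory chain were counted in the same way. Of 52 assembly factors of the complexes, 10 had a window in the cytoplasm with arsenic and 4 untreated, 34 in whole cells with arsenic and 45 untreated, 13 for CAPRIN and 3 for G3BP1. Of 82 mitochondrial ribosomal protein genes, which build the organelle's own ribosome, 24 and 8 were in the cytoplasmic lists, 73 and 80 in the whole-cell lists, and 47 and 4 in the CAPRIN and G3BP1 lists. Of 14 citric acid cycle genes, 2 and 0 were in the cytoplasmic lists, 13 and 14 in the whole-cell lists, and 14 and 3 in the others. Of 83 cytosolic ribosomal protein genes, 72 and 22 were in the cytoplasmic lists, 81 and 83 in the whole-cell lists, and 72 and 46 in the others. The 13 respiratory subunits of mitochondrial DNA had a window in 4 (MT-ND1, MT-CYB, MT-CO2 and MT-ATP8) in the cytoplasm with arsenic and in 0 of the other SNRNP200 lists, in 2 for CAPRIN and in 1 for G3BP1. With arsenic the cytoplasmic share of the nuclear subunits, 52 of 83, lay between those of the cytosolic ribosomal proteins and of the assembly factors.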

How the data were processed

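Lists of reproducibly enriched eCLIP windows were analysed as deposited for 6 experiments of 2 replicates. Reads were trimmed with fastp 0.11.5 and aligned with STAR 2.7.6 to hg38, per the submitters' processing notes. No label or header names the window caller. For each window the authors deposited raw read counts of input and IP, summed over replicates. The authors also deposited the log2 enrichment of IP over input as the lowest, mean and highest replicate value, scaled within GC classes. The highest q-value over replicates, at most 0.2 in the lists, and the GC fraction of each window are the authors' deposited values too. A further 18 columns with p-values and lowest q-values were not used. Because every listed window had passed the authors' threshold, a gene without a window may still have been bound, and a comparison of lists depends on their depth.

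Genes were taken from the gene column of each list, with each gene of a window counted. Of 83 members, 82 were matched to RefSeq by symbol and 1 by synonym. The members, gene lists and tests were chosen with earlier results of these data known. Windows in both lists of a comparison were compared with limma 3.58.1 in R 4.3.3 on the 2 replicate values of each list, unpaired and two-sided. Each gene had 1 window, that with most IP reads, and a window of several genes counted once. p-values were adjusted by Benjamini and Hochberg over all windows tested, with a threshold of 0.05. The fit was tested on simulated data. Shares have exact binomial (Clopper-Pearson) intervals of 95%, for counting error only; library totals were not known, so no depth or floor per library is given. Tables were handled in Python 3.11.15 with pandas 2.3.3 and scipy 1.17.1.

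Named genes were, by list, the member with most windows of each complex and the 3 with the highest enrichment among windows of at least 20 IP reads. In each comparison they were those called, or else the 3 largest differences in each direction, besides the members in the list overlaps described. Alternatives were at least 2 windows per gene, q under 0.05, at least 20 IP and 10 input reads, single-gene windows, lists of equal length, other weightings of windows, other limma settings, and each replicate value left out. IP reads alone and the G3BP1 sets alone were added after seeing the data. Values of 1 member are not reported here by name and are left out of the figures by gene, while the counts include it.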

Additional observations from a re-analysis of the deposited data

Results flagged for a closer look

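ATP5F1A, the alpha subunit of the ATP synthase, had differences of opposite sign with arsenic in the 2 fractions, with replicate ranges that did not overlap in either. In the cytoplasm the difference, arsenic minus untreated, was 1.21 in a 5′ UTR window, with 56 IP and 11 input reads with arsenic and 70 and 12 untreated. In whole cells it was -1.30 in an intron window at a 5′ splice site, with 68 IP and 7 input reads with arsenic and 170 and 5 untreated. limma called neither value (adjusted p = 0.40 and 0.99). In the cytoplasm 70.9% of all windows tested were higher with arsenic without overlap, and the ATP5F1A value was -0.81 with the median difference of all windows removed and -0.10 on IP reads alone, so that the signs were then no longer opposite. The windows are different pieces of RNA, the cytoplasmic arsenic list carries nearly the input reads of the whole-cell arsenic list, and the difference between the fractions was not tested.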

How the results depend on the processing

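No paired analysis was possible because the columns carry no replicate numbers. Of the counts and shares recomputed, 108 stayed within 1.5 times the reported count, or for shares within the reported share's interval, and 58 did not. Of the named members' differences, 11 turned round, 3 came to pass the threshold, 3 untested ones moved by more than the spread between replicates, and 188 kept direction and side of the threshold or, untested, moved by less than that spread, 1 of them, NDUFS6 between CAPRIN and G3BP1, with a change of sign (0.23 from the highest values alone). On IP reads alone the cytoplasmic differences of ATP5F1A, COX7C and NDUFS6 were -0.10, 0.22 and 0.17. Those of CYC1 and of the other COX7C window were 1.29 and 0.81.

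With at least 2 windows per gene, members listed were 32 in the cytoplasm with arsenic, 1 untreated and 7 for G3BP1; 0 were only in the cytoplasmic untreated list, 2 only in the whole-cell arsenic list, 21 only in the whole-cell untreated list and 0 only in the G3BP1 list. With q under 0.05, members listed were 17 in the cytoplasm with arsenic, 0 untreated, 33 in whole cells with arsenic and 7 for G3BP1; 17 were only in the cytoplasmic arsenic list and 0 only in the untreated one, 10 only in the cytoplasm against whole cells with arsenic, 0 only in whole cells with arsenic, 38 only in whole cells untreated, and 1 only for G3BP1. With at least 20 IP and 10 input reads, members listed were 2 in the cytoplasm untreated, 22 in whole cells with arsenic, 51 untreated, 11 for CAPRIN and 2 for G3BP1; 0 were only in the cytoplasmic untreated list, with arsenic 27 only in the cytoplasm against 8 in whole cells, in whole cells 0 only with arsenic and 29 only untreated, 10 only for CAPRIN and 1 only for G3BP1. With lists of equal length, members listed were 3 in whole cells with arsenic, 5 untreated and 26 for CAPRIN; 2 were only in the cytoplasmic untreated list, 46 with arsenic and 5 untreated only in the cytoplasm against 2 with arsenic and 8 untreated only in whole cells, 4 only in whole cells with arsenic against untreated, 13 only for CAPRIN and 6 only for G3BP1. The G3BP1 set of up to 2 replicates alone listed 9 members. All of these are counts of members, and no share of all genes was computed under these settings.

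Taking 1 window per gene, CAPRIN start codons held 32.2%, coding sequence 16.9% and 3′ UTRs 30.5%, splice-site introns 37.7% with arsenic and 30% untreated in whole cells, other mRNA exons 7.25% with arsenic and 5% untreated, and cytoplasmic arsenic stop codons 3.92%. With at least 10 input reads, CAPRIN start codons held 23.5% and 3′ UTRs 11.8%, splice-site introns 0% with arsenic and 6.85% untreated, and other mRNA exons 0% with arsenic. Weighted by IP reads, CAPRIN start codons held 26.9% and coding sequence 37.9%. The window limit and the read limit leave fewer windows by construction.

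With the median difference of all windows removed, differences turned round for ATP5F1A (-0.81) and NDUFS6 (-0.75) between the cytoplasmic lists and for CYC1 (0.23), NDUFB7 (0.39) and NDUFS6 (0.40) between CAPRIN and G3BP1. Over the mean of shared windows that of ATP5F1E in whole cells was 0.11. Leaving out 1 value, members called between the cytoplasmic lists numbered 0 to 2 (COX7C and CYC1 without the lowest arsenic value), and with a variance trend 1 was called; the difference of COX7C ran from 2.69 to 2.99 and that of CYC1 from 0.81 to 5.50. CYC1 untreated between fractions ran from -1.46 to 0.74, NDUFB7 from -0.42 to 0.27 and NDUFS6 from -0.39 to 0.25 between CAPRIN and G3BP1. The cause of these changes was not tested. No member could be tested with q under 0.05 in the cytoplasmic comparison and the untreated fractions, nor with at least 20 IP and 10 input reads in the untreated fractions and between CAPRIN and G3BP1.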
